A study of Homo sapiens with 4 samples.

Results

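The clustered protocadherins of chromosome band 5q31 were examined in 2 lists of H3K27me3 peaks from HaCaT cells, an established line of immortalised human keratinocytes. A peak was counted where it overlapped the window chr5:140160000-140900000 (build hg19) by at least 1 bp, a rule that uses position and no measured value. It found 10 of the 22045 peaks of both lists, 5 of 8890 in the DMSO list and 5 of 13155 in the AKBA list. The cells carried no genetic change named in the labels. One condition was cultured with the solvent DMSO and the other with AKBA, an agent whose dose the sources used here do not give, and both were profiled after 12 hours. Chromatin was precipitated with an antibody to histone H3 trimethylated at lysine 27. Of 4 samples in all, the 2 H3K27me3 libraries have 1 peak list each, and the 2 samples of input DNA were not analysed here. With 1 library per condition no difference between the lists has a replicate check, no p-value is given, and an effect of AKBA cannot be told apart from a difference between the libraries. Sequencing depth is unknown, so a place outside a list was not called and may still carry the mark. Whether the cells are keratinocytes was not checked, since the peaks were not assigned to marker genes.

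Clustered protocadherins are adhesion proteins of the cadherin superfamily, best known from neurons, where each cell expresses its own combination of them and so gains a surface identity. They lie in 3 neighbouring clusters. Each PCDHA and PCDHG gene contributes a variable exon with a promoter of its own, which is spliced to constant exons that its cluster shares, whereas PCDHB genes stand alone. Promoter choice is known to involve DNA methylation and the looping proteins CTCF and cohesin. H3K27me3 is laid down by Polycomb repressive complex 2 on silenced genes, often at promoters rich in CG dinucleotides.

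RefSeq's GRCh38.p14 gene table lists the clusters in the order PCDHA, PCDHB and PCDHG, with 15, 16 and 22 protein-coding genes, 53 in all, and 6 pseudogenes. PCDHAC1 and PCDHAC2 are the last genes of the PCDHA cluster, and PCDHGC3, PCDHGC4 and PCDHGC5 the last of PCDHG. SLC25A2, a mitochondrial ornithine carrier, and TAF7, a subunit of a general transcription factor, stand between PCDHB and PCDHG. That table is of another build than the peaks, so no peak was placed on a gene, exon or promoter. The window was instead divided at 250 and 500 kb from its start, at 140410000 and 140660000, into PCDHA, PCDHB and PCDHG segments of 250, 250 and 240 kb. The dividing points rest on general knowledge of the hg19 assembly, since the files name no genes. The nearest peak was 22.1 kb from the first and 84.0 kb from the second.

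Promoter sequences are shown because the clusters are compared and most promoters of a cluster share a short run of bases. RefSeq promoter sequences, 250 bases before to 50 after the start of the gene in build GRCh38.p14, matched 47 of the 53 genes. In the 250 upstream bases the most widely shared run of 8 bases was searched on the strand of the gene only. It was ATGTCGCT in 9 of 13 PCDHA promoters, GGTGGCGC in 12 of 14 PCDHB promoters and GCCGCTGT in 11 of 20 PCDHG promoters. These counts were the same when the chosen run was read on both strands. Where another run was found in as many promoters, as for PCDHA and PCDHB, the first in the alphabet was taken. None of these runs occurred in the promoters of the other clusters, and they were in 0.182%, 1.84% and 1.23% of all 35116 promoters. The runs were picked for being shared, so these counts are a description. Below are the first genes of each cluster with the run, which is in capitals. In the stretches shown the run contains CGCT or completes it with the next base. CGCT was present on either strand in 45 of the 47 promoters and in 64.8% of all promoters. The promoters with a run hold CGCT through it, so these shares are also a description and no test. All genes are on the forward strand.
PCDHA1: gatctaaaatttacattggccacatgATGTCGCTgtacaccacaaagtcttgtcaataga
PCDHA2: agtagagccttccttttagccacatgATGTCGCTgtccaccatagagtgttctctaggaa
PCDHB2: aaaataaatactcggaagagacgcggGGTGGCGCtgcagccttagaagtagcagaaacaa
PCDHB3: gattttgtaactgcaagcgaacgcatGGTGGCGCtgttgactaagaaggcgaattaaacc
PCDHGA1: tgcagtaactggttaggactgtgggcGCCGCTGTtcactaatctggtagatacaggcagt
PCDHGB1: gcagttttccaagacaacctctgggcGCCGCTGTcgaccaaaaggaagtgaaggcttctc

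In GRCh38.p14 these stretches lie at chr5:140786072-140786131 (PCDHA1), chr5:140794767-140794826 (PCDHA2), chr5:141094529-141094588 (PCDHB2), chr5:141100378-141100437 (PCDHB3), chr5:141330391-141330450 (PCDHGA1) and chr5:141350013-141350072 (PCDHGB1). These positions cannot be set beside the hg19 positions of the peaks. The run ended 34 bases before the start of PCDHA1, 52 before PCDHB2 and 89 before PCDHGA1. In the 300 bases, of which 50 follow the start of the gene, protocadherin promoters held a median of 7.0 CG dinucleotides. Over all promoters the median was 14.0, and 41 of the 47 were below it. Bases further into the genes were not counted, and a link between these counts and the peaks was not tested. Cluster medians were close, at 7.0 for PCDHA, 7.5 for PCDHB and 7.0 for PCDHG. The highest counts were 27 in PCDHAC1, 23 in PCDHGC4 and 18 in PCDHGC3, genes near the ends of their clusters. PCDHAC2, the last PCDHA gene, had 15, fewer than the 16 of PCDHGB6, and PCDHGC5 was not among the matched promoters. PCDHB promoters held 5 to 12.

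Each of the 3 segments held called places of H3K27me3. The 10 peaks lay at 7 separate places, 3 called in both lists, 2 in the DMSO list alone and 2 in the AKBA list alone. A share of called places per gene was not computed over the genome, so 7 places cannot be called few for 53 genes. Per Mb each list had 6.76 peaks in the window, against 3.04 (DMSO) and 4.49 (AKBA) over the genome. No peak was placed on a gene, and a gene without a called place may still carry the mark. DMSO peaks measured 160 to 588 bp and AKBA peaks 214 to 1325 bp, and 3 of the 10 were wider than the median of their list. The PCDHA segment held peaks of both lists, the PCDHB segment of the DMSO list alone, and the PCDHG segment of both.

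**Figure D1:**
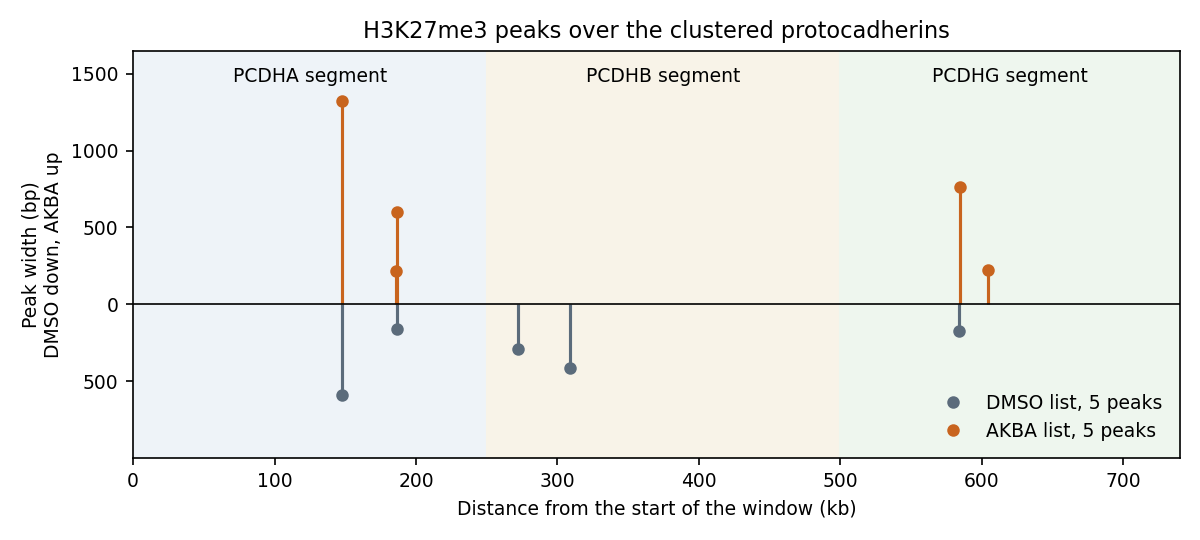
Width of each H3K27me3 peak (vertical axis, bp; AKBA peaks up, DMSO peaks down) against the distance from the start of the protocadherin window (horizontal axis, kb), with the 3 segments shaded. The 2 PCDHB peaks are DMSO peaks, and the widest peak is the AKBA peak of 1325 bp in the PCDHA segment.

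In the PCDHA segment the first place held the widest peak that each list had in the window. The DMSO peak, chr5:140307231-140307818, measured 588 bp, and its score was 2.79. The score is a number that the authors gave each peak, in a unit the files leave unnamed. The AKBA peak, chr5:140307025-140308349, measured 1325 bp with a score of 3.35 and contained the whole DMSO peak. Some 38.6 kb further along, the DMSO list had a peak of 160 bp, chr5:140346452-140346611, with a score of 2.98. This is the narrowest width anywhere in the DMSO list. Around it the AKBA list had 2 peaks, chr5:140345415-140345628 of 214 bp with a score of 4.65, and chr5:140346598-140347196 of 599 bp with a score of 2.78. They stood on either side of most of the DMSO peak, and the wider of them overlapped it by 14 bp while the narrower ended 823 bp before it. The peak of 214 bp is counted as a separate place. It had the highest score of the 5 AKBA peaks and the narrowest width in the AKBA list. The first 147 kb of the window, before these places, held no peak of either list.

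The PCDHB segment, home of the single-exon protocadherins, was called in the DMSO list alone. One DMSO peak, chr5:140432053-140432344, measured 292 bp with a score of 2.69, and the other, chr5:140468355-140468766, measured 412 bp with a score of 2.93. The nearest AKBA peaks were 84.9 and 121 kb away. Among the 4041 DMSO peaks without an AKBA overlap the median distance to an AKBA peak was 7.56 kb, and 13.5% and 10.7% lay farther than these peaks. Their widths and scores were near the medians of those 4041 peaks, 352 bp and 2.72. The AKBA list had no peak over 397 kb, from the end of its last PCDHA peak to its first PCDHG peak. In tiles of 250 kb over the genome that held exactly 2 DMSO peaks, 5.10% of 745 held no AKBA peak, and in those with 2 or more it was 2.42% of 1819. The segment is 1 such stretch, and these shares describe the lists without testing it.

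In the PCDHG segment both lists had a peak at the same place and the AKBA list 1 more. The DMSO peak, chr5:140743954-140744128, measured 175 bp and had the highest score of the 5 DMSO peaks, 3.92. The AKBA peak, chr5:140743978-140744741, measured 764 bp and had the lowest score of the 5 AKBA peaks, 2.28. These 2 peaks thus ranked differently within their lists: 79.4% of the DMSO list and 12.0% of the AKBA list scored lower. They differ in width and share 151 bp, so the ranks do not compare the same bases. The further AKBA peak, chr5:140764441-140764664, measured 224 bp with a score of 3.25 at a distance of 20.3 kb to the closest DMSO peak. The median for the 8925 AKBA peaks without a DMSO overlap was also 20.3 kb. No peak of either list lay in the last 135 kb of the window.

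**Figure D2:**
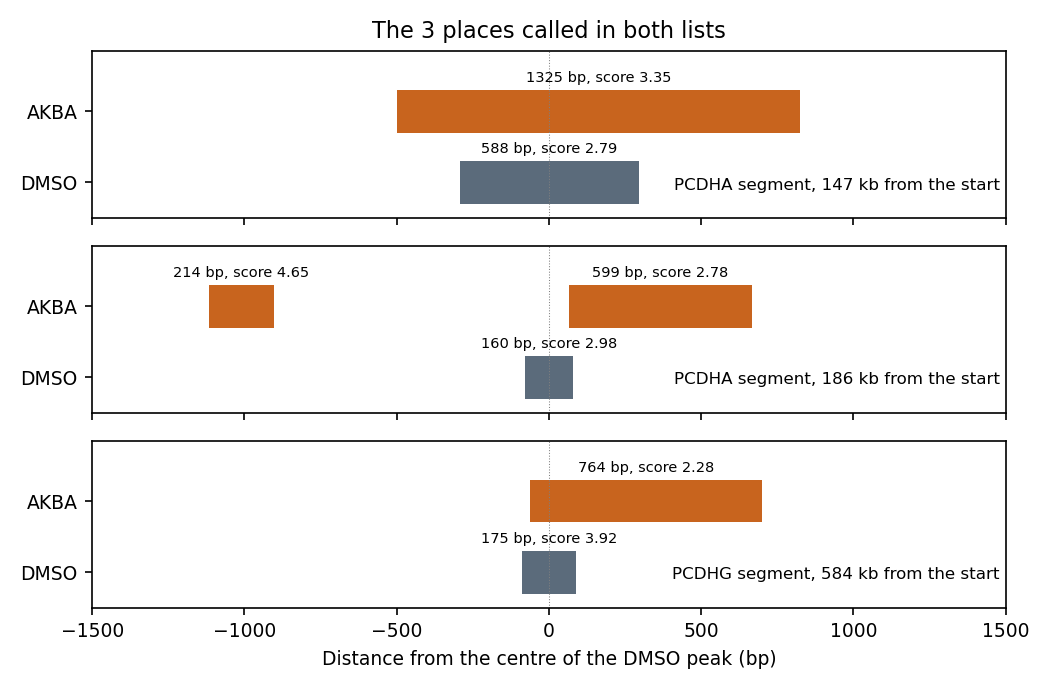
The 3 places called in both lists, each drawn to scale with the distance from the centre of the DMSO peak on the horizontal axis (bp) and the lists on the vertical axis; widths and scores are printed above the bars. Each overlapping AKBA peak is the wider and ends 531 to 613 bp beyond the DMSO peak.

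The 3 overlapping pairs ranged from a DMSO peak wholly inside its AKBA peak to an overlap of a few bases. The overlap was 588 bp in the first PCDHA pair, 14 bp in the second and 151 bp in the PCDHG pair, which was 100%, 8.75% and 86.3% of the DMSO peak but 44.4%, 2.34% and 19.8% of the AKBA peak. An overlap of 14 bp or less was found in 0.541% of the 3510 pairs of the whole lists in which 1 peak overlapped 1 peak, and the median overlap there was 623 bp. The AKBA peak was the wider in 3 of 3 pairs, by 2.25, 3.74 and 4.37 times, against 73.1% of the 3510 pairs and a median ratio of 1.42. All 3 AKBA peaks extended on the side of higher coordinates, ending 531, 585 and 613 bp after the DMSO peak. At the other edge the first AKBA peak began 206 bp before its DMSO peak, and the others began 146 and 24 bp after theirs. Over the whole lists the edges moved about equally, by a median of -136.5 bp at the start and 133 bp at the end, and 26.95% of pairs had an end at least 531 bp later. The narrowest width was 160 bp in the DMSO list and 214 bp in the AKBA list and the smallest gap between peaks 641 and 857 bp, and the part of these differences in the widths was not tested.

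Sharing between the lists was not distinguishable from that of all peaks at this number of members. Of the DMSO peaks 3 of 5 (60.0%, exact Clopper-Pearson 95% interval 14.7 to 94.7%) overlapped an AKBA peak, against 54.5% of the whole DMSO list and 48.2% on chromosome 5. Of the AKBA peaks 3 of 5 overlapped a DMSO peak, with the same interval, against 32.2% of the whole AKBA list and 29.2% on chromosome 5. The intervals cover counting error only and treat peaks as independent. By cluster, both DMSO peaks of PCDHA, neither of PCDHB and the single peak of PCDHG were shared. When a reciprocal overlap of at least 50% was required, 0 of 5 peaks were shared in each list (interval 0 to 52.2%), against 20.8% and 14.0% of the whole lists. When peaks up to 1 kb apart counted as shared, it was 3 of 5 DMSO and 4 of 5 AKBA peaks, against 63.3% and 37.7% of the whole lists. By the reciprocal measure no pair matched closely in both position and width.

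Bases inside peaks were 1627 bp in the DMSO list and 3126 bp in the AKBA list, 0.220% and 0.422% of the window. The ratio of 1.92 was close to those of chromosome 5, 1.88, and of the whole lists, 1.94. It was made up differently in the segments. In PCDHA the AKBA list covered 2138 bp and the DMSO list 748 bp, in PCDHB 0 and 704 bp, and in PCDHG 988 and 175 bp. The share of a list's bases in the window was 46.0% in PCDHA, 43.3% in PCDHB and 10.8% in PCDHG for DMSO, and 68.4%, 0% and 31.6% for AKBA. Called in both lists were 753 bp, of which 602 bp lay in PCDHA and 151 bp in PCDHG. Against the whole lists, with more and wider AKBA peaks, the peak numbers in the window were equal and the ratio of bases came from width: the mean was 325 bp in the DMSO and 625 bp in the AKBA list. A segment's difference rests on 1 to 3 peaks per list.

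**Figure D3:**
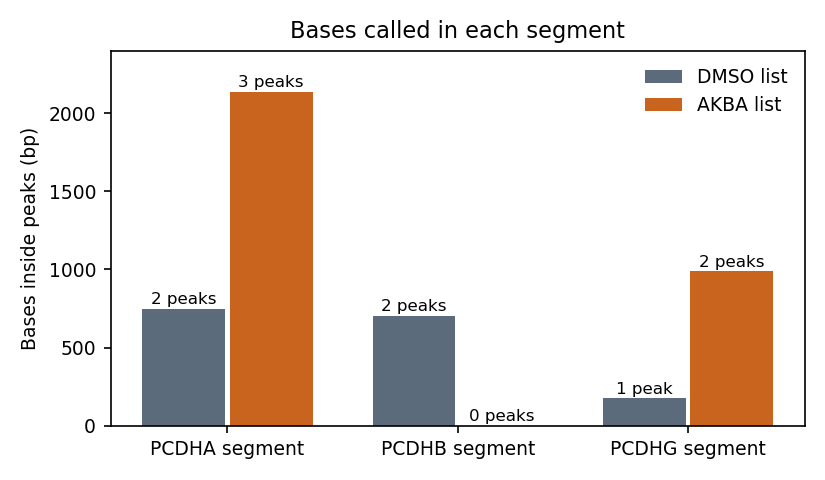
Bases inside H3K27me3 peaks (vertical axis, bp) in the PCDHA, PCDHB and PCDHG segments, with 1 bar per list and the number of peaks above it; there are no error bars because each condition has 1 library. The AKBA bar is the higher in PCDHA and PCDHG, and in PCDHB the DMSO list has 704 bp and the AKBA list 0.

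The widths spread on both sides of the list medians. Of the DMSO peaks 4 of 5 were narrower than the list's median of 552.5 bp, and 3 of 5 AKBA peaks were narrower than that list's median of 742 bp, a share near that of all peaks. The widest, the AKBA peak of 1325 bp, exceeded 75.7% of its list, and the DMSO peak of 588 bp 52.8%. The median score was 2.93 for the 5 DMSO peaks and 3.02 for their list, and 3.25 and 2.99 for AKBA. The highest score of each list in the window belonged to a peak at or near the narrowest width, the DMSO peak of 175 bp and the AKBA peak of 214 bp. The median score of all peaks at the narrowest width was 3.09 in the DMSO list and 2.94 in the AKBA list. Scores of the lists were not subtracted or divided, because their scale is not stated.

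**Figure D4:**
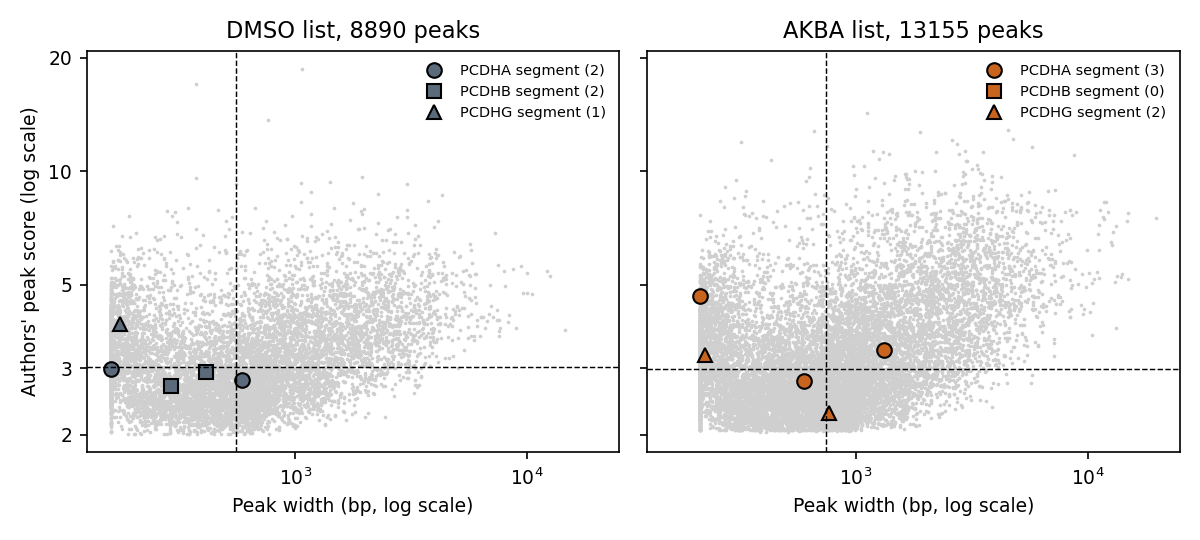
Width (horizontal axis, bp, log scale) and the authors' score (vertical axis, log scale) of every peak of the DMSO list (left) and AKBA list (right) in grey, with the 5 protocadherin peaks of each list marked by segment; dashed lines are the medians of the list. In the DMSO list 4 of the 5 marked peaks lie left of the median width, and in the AKBA list 3 of 5, with the widest at 1325 bp.

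The window held more peaks of each list than the equally long stretches before and after it. With 5 peaks in 740 kb each list had 6.76 peaks per Mb, against 2.20 DMSO and 3.15 AKBA peaks per Mb on chromosome 5 and 3.04 and 4.49 over the genome, measured between the first and last peak of a chromosome. Of 3973 tiles of 740 kb over the genome, 15.1% held at least 5 DMSO peaks and 22.8% at least 5 AKBA peaks, while the median tile held 1 of each. In the RefSeq table the nearest protein-coding neighbours are ZMAT2 and HARS2 before the clusters and DIAPH1 and HDAC3 after them. The equally long stretch before the window held 1 peak per list, 749 bp wide in the DMSO and 1555 bp in the AKBA list. The DMSO peak lay wholly within the AKBA peak. Just outside this stretch both lists had further peaks, the nearest at -0.762 Mb (DMSO) and -0.752 Mb (AKBA) from the window start. More lay back to -0.985 Mb in each list, so the contrast depends on where the stretch was cut. The stretch after the window held none in either list. From the first protocadherin peak back to the last peak before the window it was 843 kb in the DMSO and 842 kb in the AKBA list, and 10.1% and 6.43% of the gaps between peaks in these lists were longer. After the last protocadherin peak the next lay 2841 kb away in the DMSO list and 1198 kb in the AKBA list. In bases, however, the window was close to the genome: 0.220% was covered in the DMSO list and 0.422% in the AKBA list, against 0.259% and 0.501% over the genome.

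**Figure D5:**
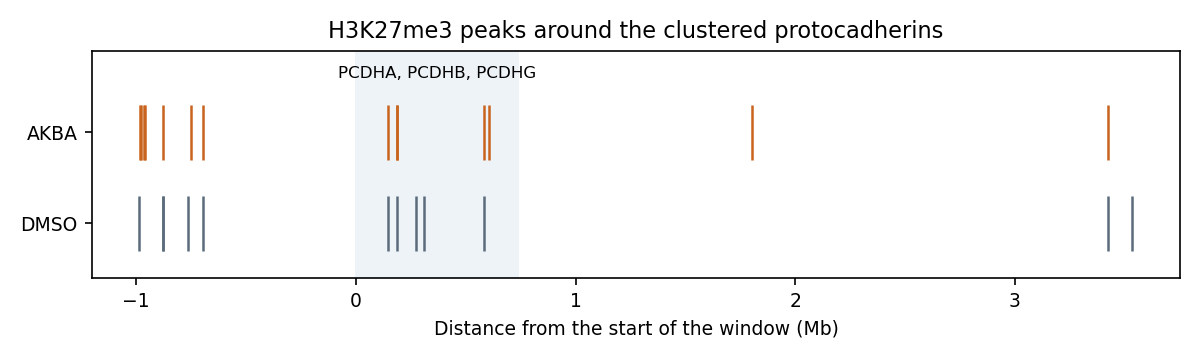
Position of H3K27me3 peaks of both lists (rows) from 1 Mb before to 3 Mb after the protocadherin window, as the distance from its start (horizontal axis, Mb), with the window shaded. Both lists have 5 peaks inside the window and wide gaps on either side of it.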

How the data were processed

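H3K27me3 chromatin immunoprecipitation was sequenced from HaCaT cells with DMSO or AKBA. Per the submitters' processing notes the build was hg19 and the tools were BWA, STAR and MACS2, without versions or roles. The sources used here do not give the threshold, the handling of duplicates, the use of input or the placement of reads that match several paralogs. The deposited lists hold chromosome, start, end, name and a score per peak, whose scale the authors do not state. Its use here is to describe and filter peaks within a list.

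Starts were converted to 1-based positions. Peaks of the window were counted, clipped to each segment and compared by overlap of at least 1 bp with scipy 1.17.1, pandas 2.3.3 and numpy 2.4.6 in Python 3.11.15. Overlap counts were checked against bedtools 2.31.1, and the overlap code was tested on the DMSO peaks of chromosome 5 shifted at random. All 10 peaks of the window are described, so no rule of choice among them was needed. The window, the segments and the comparisons were chosen with earlier results of these data known. The promoter runs, the genome tiles and the comparison of pairs were added after the peaks had been seen. Where RefSeq lists a gene's promoter more than once, the first by position was used. Alternatives were a stricter score, equal peak numbers, width, joining, narrowest peaks, membership, dividing points and definitions of overlap. Depth is unknown.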

Additional observations from a re-analysis of the deposited data

How the results depend on the processing

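Few peaks and 1 library per condition limit every value. Keeping scores of at least 3 left 1 DMSO and 3 AKBA peaks, covering 175 and 1763 bp (ratio 10.1), with shared shares of 0% in both lists. Peaks of at least 1 kb were 0 and 1, covering 0 and 1325 bp, with 0% of AKBA peaks shared and no ratio. The score minimum is close to the median score of each list, 3.02 for DMSO and 2.99 for AKBA. Shares and ratios of the whole lists were not computed under the settings that filter or join peaks. Values under those settings thus have no background and cannot be called particular to this window. Joining peaks within 5 kb also counts the uncalled bases between them, here a gap of 0.969 kb between AKBA peaks of PCDHA. The ratio of bases was 1.45 with the same number of highest-scoring peaks per list and 2.52 with joining. Both settings left 5 DMSO and 4 AKBA peaks. The peak number, equal as deposited, was thus higher for AKBA under the stricter score and the width minimum and for DMSO under these settings. A reciprocal overlap of 50% gave 0% in both lists. The difference in the PCDHB segment, -704 bp (AKBA minus DMSO), became 0 with the stricter score and with the width minimum, since neither PCDHB peak passed. The PCDHG difference, 813 bp, became 49 bp with the stricter score and with equal peak numbers and 0 with the width minimum, and the PCDHA difference went from 1390 to 2359 bp with joining. Counting peaks within 1 kb as shared gave 60.0% and 80.0%, against 63.3% and 37.7% of the whole lists. No segment's difference in covered bases changed sign under the alternatives run, although those of PCDHB and PCDHG went to 0 as given. Membership wholly inside the window and both moves of the dividing points changed nothing, since no peak lies at those edges. This outcome followed from the peak positions and is no check of the segments. Moving the first dividing point past the PCDHB peak 22.1 kb after it was not run. No paired analysis was possible because each condition has 1 library.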
